A study of Mus musculus with 6 samples.

Results

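The MCM, Cdc45 and GINS genes examined here are 10 mouse genes of replication licensing and helicase activation, Mcm2, Mcm3, Mcm4, Mcm5, Mcm6, Mcm7, Mcm10, Cdc45, Gins1 and Gins2. They were chosen by gene name, and were selected on results of the same SMA and control libraries, so that their differences between the groups are a description without a test. All 10 were found among the 25576 genes listed in at least 1 library, and all 10 were among the 17088 genes tested, which had a mean of at least 0.5 FPKM (fragments scaled by exon length and by the mapped total of the library). The libraries were made by bulk RNA-seq of whole spinal cord of FVB mice at postnatal day 4. The 3 SMA libraries carry the genotype mSmn-/-, hSMN22tg/0 of the severe Taiwanese model. In this model mouse Smn is knocked out and a human SMN2 transgene is present. The 3 control libraries carry mSmn+/-, hSMN22tg/0, so that the controls also have 1 mutant Smn allele and hold the same transgene. The methods of the study describe triplicates with n = 1 per group, and the spread between libraries may therefore be technical. Values are given in the order of replicates 1, 2 and 3 of a group.

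MCM2 to MCM7 form the ring-shaped helicase that is loaded onto replication origins before S phase by the origin recognition complex, CDC6 and CDT1, a step called licensing. CDC45 and the GINS complex then join the ring to form the active helicase, with MCM10 acting at this activation step. Transcription of many of these genes depends on E2F factors and is high in proliferating cells, while neurons have left the cell cycle. In the newborn spinal cord, glial precursors and vascular cells still divide.

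The number of reads behind each library is unknown. Relative depth was estimated from the commonest ratio of low values between libraries, which showed no sharp peak, and for the other 5 libraries it lay at 0.985 to 1.16 of SMA replicate 1 over limits of 0.05 to 0.3 FPKM. Control replicate 2 stood apart. Its Pearson correlation of log2(FPKM + 1) with the other 5 libraries, taken across genes that are no independent replicates, was 0.836 to 0.849, against 0.983 to 0.992 among those 5. Of 15 hepatocyte markers, 15 were highest in control replicate 2, and their summed level was 85.9, 30200 and 57.7 FPKM in control and 49.4, 107 and 58.1 FPKM in SMA. The most abundant of them, Alb, which encodes serum albumin, was at 15900 FPKM in control replicate 2 and at 24.6 to 56.2 FPKM elsewhere. Fold changes of the 10 genes, and counts and medians of the other replication lists, are therefore given with and without control replicate 2.

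Smn1, the gene knocked out in the model, did not separate the groups by its level. Control libraries held 10.4, 8.64 and 11.9 FPKM and SMA libraries 8.48, 9.30 and 11.1 FPKM, with a log2 fold change of -0.09. FPKM per gene does not tell which exons the reads came from, so this level is no check of the mutation. The genotype labels are thus unchecked by the level of this gene, and every direction given here rests on them. Per the methods of the study, newborn mice were genotyped from tail tissue. The paper also describes less CD31 protein, the product of Pecam1, by immunofluorescence in the SMA cord at postnatal day 4. Pecam1 RNA was lower in all SMA libraries than in all control libraries here, with its values given further on. The groups overlapped for Cdh5 and Flt1, which are also endothelial, and RNA and protein are unlike measures.

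Promoters of ring subunits are shown because all of these subunits were highest in control replicate 2. RefSeq promoters, each with 250 bases before and 50 bases after the start site on GRCm38.p6, were found for 7 of the 10 genes, in 8 windows. They were searched on both strands for the E2F words TTTCCCGC, TTTCGCGC, TTTGCCGC and TTTGGCGC, of which 1 or more occurred in 4 of the 7 genes, against 704 of 27025 genes with a promoter (2.6%). Among genes with a promoter in the other replication lists described further on, the words occurred in 6 of 12 for origin recognition and loading, 3 of 9 for helicase activation, 7 of 23 for the replication fork, 7 of 18 for E2F and G1-S regulators and 1 of 13 for other proliferation genes. Only the 4 windows with such a word are printed. In these sequences, given 5′ to 3′ on the strand of the gene, capitals mark these words. The Mcm3 window lies at chr1:20820263-20820562 (minus strand), that of Mcm6 at chr1:128359656-128359955 (minus strand), that of Mcm7 at chr5:138171834-138172133 (minus strand) and that of Mcm5 at chr8:75109259-75109558 (plus strand).
Mcm3: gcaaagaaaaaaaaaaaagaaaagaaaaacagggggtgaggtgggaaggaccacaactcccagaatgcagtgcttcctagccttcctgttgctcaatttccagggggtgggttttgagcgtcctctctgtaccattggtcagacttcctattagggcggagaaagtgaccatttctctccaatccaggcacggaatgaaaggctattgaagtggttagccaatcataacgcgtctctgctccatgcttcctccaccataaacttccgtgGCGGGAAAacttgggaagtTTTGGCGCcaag
Mcm6: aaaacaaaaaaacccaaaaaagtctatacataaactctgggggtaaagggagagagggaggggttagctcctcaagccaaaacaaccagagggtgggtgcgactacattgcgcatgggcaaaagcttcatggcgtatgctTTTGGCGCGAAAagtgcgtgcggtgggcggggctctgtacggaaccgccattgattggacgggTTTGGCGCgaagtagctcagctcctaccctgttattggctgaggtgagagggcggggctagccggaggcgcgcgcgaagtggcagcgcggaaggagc
Mcm7: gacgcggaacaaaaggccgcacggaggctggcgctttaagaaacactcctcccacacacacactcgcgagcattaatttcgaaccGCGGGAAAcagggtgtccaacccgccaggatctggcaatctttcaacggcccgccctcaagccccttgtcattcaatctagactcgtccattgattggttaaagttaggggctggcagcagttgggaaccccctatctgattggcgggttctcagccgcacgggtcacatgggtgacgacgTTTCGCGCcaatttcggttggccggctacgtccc
Mcm5: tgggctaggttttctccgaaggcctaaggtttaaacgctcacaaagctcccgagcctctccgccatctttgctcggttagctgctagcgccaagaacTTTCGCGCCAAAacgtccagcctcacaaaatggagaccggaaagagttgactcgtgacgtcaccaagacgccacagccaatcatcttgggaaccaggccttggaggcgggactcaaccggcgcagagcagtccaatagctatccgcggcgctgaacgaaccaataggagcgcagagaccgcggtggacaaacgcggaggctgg

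In Mcm6 and in Mcm5, TTTGGCGC and TTTCGCGC on opposite strands overlapped and formed a single longer run. Mcm6 held a further TTTGGCGC from position -47 to -40 relative to the start site, while both words of Mcm3 lay after the start site, from 20 to 27 and from 39 to 46. No such word was in the windows of Mcm2, Mcm10 and Cdc45 or in the other Mcm7 window. CCAAT, the core of the NF-Y motif, was in all 7 genes on either strand, against 41.1% of all genes with a promoter. It was also in 10 of 13 other proliferation genes, 6 of 12 genes for origin recognition and loading, 11 of 23 for the replication fork, 7 of 18 E2F and G1-S regulators and 3 of 9 genes for helicase activation. The matches describe letters in these windows, and binding was not measured.

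All 10 genes had their highest level in control replicate 2, as did 24.7% of all genes tested. Without that library, the 10 genes were still lower on average in SMA than in control, with log2 fold changes from -0.49 for Mcm3 to -0.15 for Mcm7. Fold changes are SMA minus control on the log2(FPKM + 1) scale, which understates differences of genes with low FPKM. In bulk tissue, fewer dividing cells and less RNA of these genes per cell cannot be told apart.

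**Figure D1:**
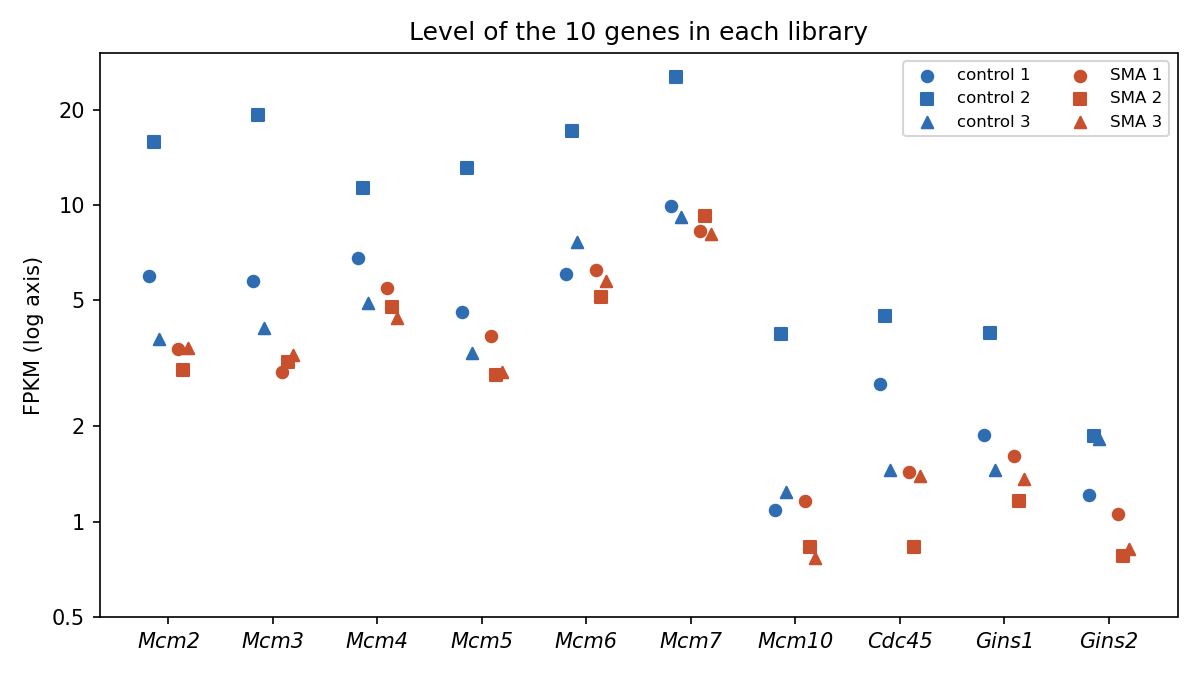
FPKM (log axis) of the 10 genes in each of the 3 control (blue) and 3 SMA (red) libraries, with circles, squares and triangles for replicates 1, 2 and 3. The blue squares, control replicate 2, are the highest point of every gene, and by the smallest margin for Gins2 (1.87 against 1.82 FPKM in control replicate 3).

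Positions of the 10 genes are those of GENCODE M21 on GRCm38, the same assembly as mm10, and values in parentheses after a fold change are standard errors. Mcm2, a ring subunit (chromosome 6, 88883474 to 88898780), was at 5.98, 15.8 and 3.79 FPKM in control and at 3.52, 3.02 and 3.55 FPKM in SMA. All control libraries lay above all SMA libraries, but control replicate 3 exceeded the highest SMA library only narrowly. The log2 fold change was -0.92 (0.43), and -0.41 (0.18) without control replicate 2. Mcm3 (chromosome 1, 20802968 to 20820312), whose product also belongs to the ring, was at 5.76, 19.2 and 4.10 FPKM in control and at 2.98, 3.20 and 3.36 FPKM in SMA. The groups did not overlap, and control replicate 2 was 3.89 times the mean of control replicates 1 and 3, the highest such ratio of the 10 genes. Its log2 fold change was -1.09 (0.48), and -0.49 (0.15) without control replicate 2.

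Mcm4 (chromosome 16, 15623897 to 15637400), which encodes a subunit of the catalytic core of the helicase, was at 6.79, 11.3 and 4.91 FPKM in control and at 5.46, 4.78 and 4.39 FPKM in SMA. Control replicate 3 lay among the SMA libraries. Its log2 fold change was -0.50 (0.26), and -0.21 (0.15) without control replicate 2. Prkdc, the neighbour of Mcm4 that encodes the catalytic subunit of DNA-dependent protein kinase, was named after its values were seen. It was at 4.88, 5.82 and 6.95 FPKM in control and at 5.62, 6.06 and 6.28 FPKM in SMA, and was not highest in control replicate 2.

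Mcm5 (chromosome 8, 75109569 to 75128439), which sits next to Mcm2 at the gate of the ring, was at 4.59, 13.1 and 3.41 FPKM in control and at 3.85, 2.90 and 2.98 FPKM in SMA. SMA replicate 1 exceeded control replicate 3, so the groups overlapped. The log2 fold change was -0.74 (0.41), and -0.23 (0.16) without control replicate 2. Mcm6 (chromosome 1, 128331590 to 128359664), another subunit of the catalytic core, was at 6.08, 17.1 and 7.67 FPKM in control and at 6.24, 5.14 and 5.75 FPKM in SMA. Here control replicate 1 was the low control library and lay within the SMA range. The log2 fold change was -0.63 (0.33), and -0.23 (0.13) without control replicate 2.

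Mcm7 (chromosome 5, 138164583 to 138172422), also of the catalytic core, was at 9.93, 25.4 and 9.16 FPKM in control and at 8.28, 9.22 and 8.09 FPKM in SMA. SMA replicate 2 exceeded control replicate 3. Its log2 fold change was -0.59 (0.35), and -0.15 (0.10) without control replicate 2, the value nearest to 0 of the 10 genes. The files give Mcm7 a span shared with Cops6, Ap4m1 and Taf6, so that reads may be uncertain between them. The ratio of control replicate 2 to the mean of control replicates 1 and 3 was 2.66 for Mcm7, and 1.11, 0.876 and 1.05 for Cops6, Ap4m1 and Taf6.

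Levels per length can be compared between the subunits within a library. Mcm7 was the most abundant of Mcm2 to Mcm7 in all 6 libraries, with 24.9% to 32.6% of their summed FPKM. In SMA, Mcm7 (mean 8.53 ± 0.605 FPKM, SD, n = 3) was followed in every library by Mcm6 (5.71 ± 0.546 FPKM) and then Mcm4 (4.87 ± 0.541 FPKM), although the ranges of Mcm6 and Mcm4 over the libraries overlapped. Mcm4 lay above Mcm2 (3.36 ± 0.302 FPKM). Mcm2, Mcm5 and Mcm3 did not differ beyond their spread. In control, where the SD of Mcm7 was 9.14 FPKM around a mean of 14.8 FPKM, the ranges of all neighbours in the order overlapped. Without control replicate 2, Mcm7 was separate from Mcm6 and the others overlapped with their neighbours. Control replicate 2 also differed in order, with Mcm3 second and Mcm4 last.

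**Figure D2:**
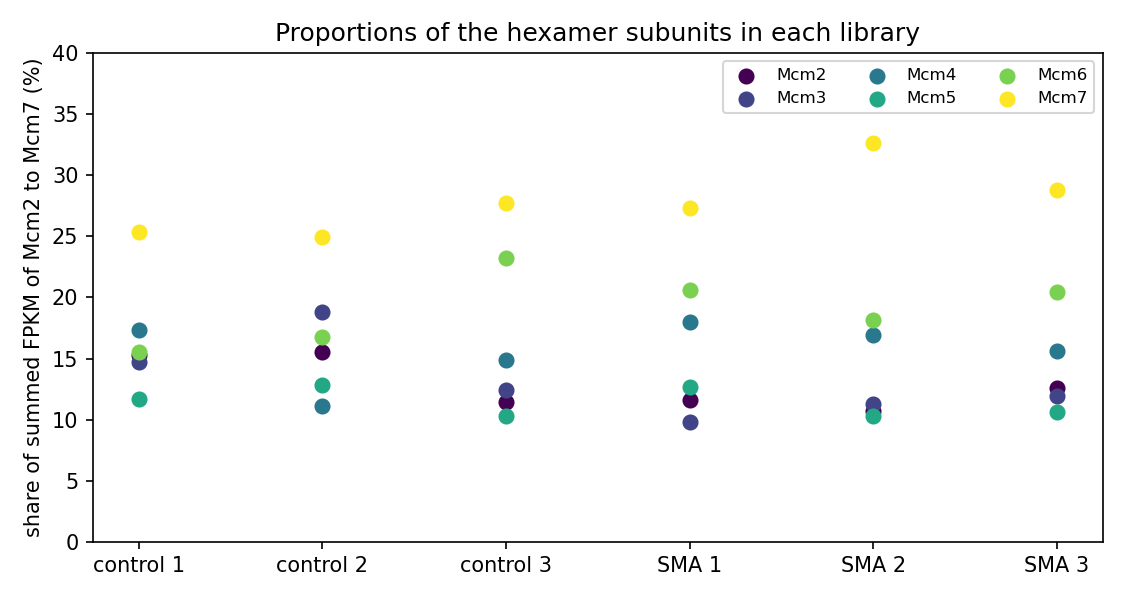
Share of each subunit in the summed FPKM of Mcm2 to Mcm7 (%), with 1 point per subunit and library. Mcm7 holds the top place in all 6 libraries, and Mcm4 is the lowest subunit in control replicate 2 but not in the other 5.

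Mcm10 (chromosome 2, 4989714 to 5012791), the activation factor, was at 1.09, 3.93 and 1.24 FPKM in control and at 1.16, 0.831 and 0.770 FPKM in SMA. Control replicate 1 lay below SMA replicate 1. Its log2 fold change was -0.57 (0.34), and -0.18 (0.16) without control replicate 2. Cdc45 (chromosome 16, 18780447 to 18811987), the helicase cofactor, was at 2.72, 4.47 and 1.46 FPKM in control and at 1.44, 0.833 and 1.39 FPKM in SMA. The groups did not overlap, although control replicate 3 and SMA replicate 1 were nearly equal. Its log2 fold change was -0.74 (0.30), and -0.46 (0.22) without control replicate 2. The span of Cdc45 in the files is shared with Ufd1l, which was at 23.2, 25.8 and 26.9 FPKM in control and at 25.3, 25.3 and 24.4 FPKM in SMA.

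Gins1 (chromosome 2, 150905400 to 150931280), a GINS subunit, was at 1.88, 3.95 and 1.46 FPKM in control and at 1.61, 1.16 and 1.36 FPKM in SMA. SMA replicate 1 exceeded control replicate 3. The log2 fold change was -0.47 (0.27), and -0.17 (0.16) without control replicate 2. Gins2 (chromosome 8, 120578633 to 120589304), which encodes another GINS subunit, was at 1.21, 1.87 and 1.82 FPKM in control and at 1.06, 0.779 and 0.819 FPKM in SMA. The groups did not overlap, and control replicate 2 was close to control replicate 3, with a ratio of 1.24 to the mean of control replicates 1 and 3, the lowest of the 10 genes. Its log2 fold change was -0.48 (0.17), and -0.41 (0.17) without control replicate 2. The files place Gins2 in a span shared with 102 other genes, so its reads may be uncertain.

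**Figure D3:**
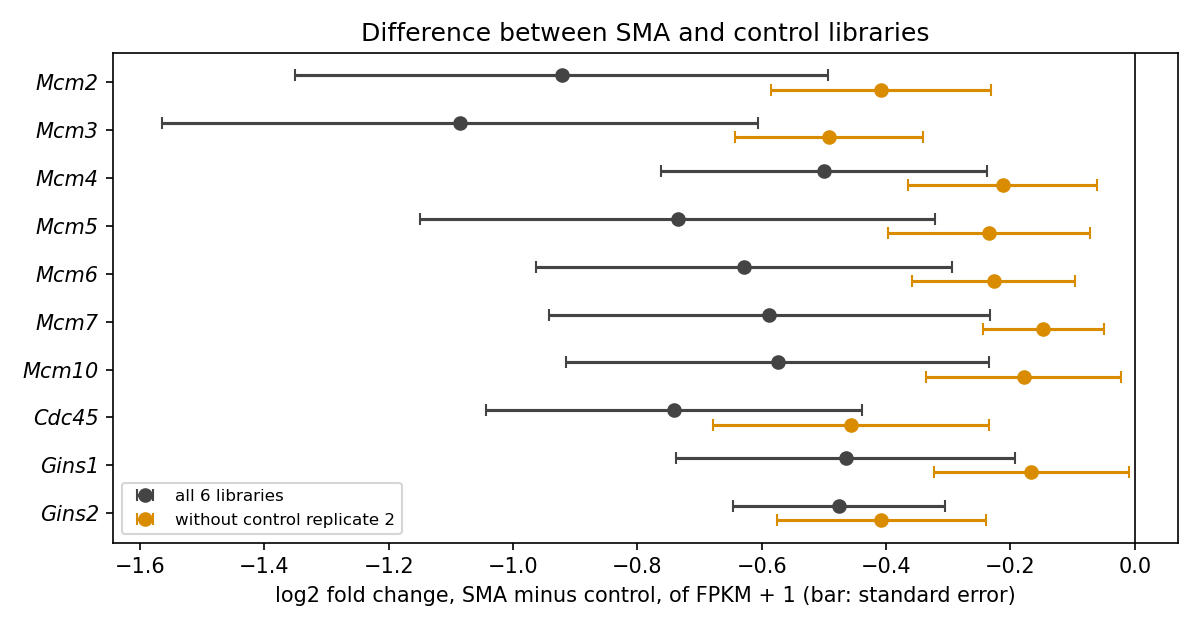
Log2 fold change of FPKM + 1, SMA minus control, of each gene over all 6 libraries (grey) and without control replicate 2 (orange), with bars for the standard error from limma. All points lie below 0, from -1.09 to -0.47 over 6 libraries and from -0.49 to -0.15 without control replicate 2.

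Over the 10 genes, the median log2 fold change was -0.61, where that of all genes tested was 0.04 and 42.0% of them were below 0. Without control replicate 2, the median was -0.23, where that of the 16574 genes tested was 0.00 and 49.6% were below 0. With control replicates 1 and 2 both left out, an alternative chosen after seeing the data, the median was -0.15 and the 10 values ranged from -0.58 for Gins2 to -0.01 for Mcm4, with control replicate 3 as the only control library and assumed to vary like the SMA libraries. The summed level of the 10 genes was 46.0, 116 and 39.0 FPKM in control and 35.6, 31.9 and 32.5 FPKM in SMA.

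All control libraries lay above all SMA libraries for 4 of the 10 genes, Mcm2, Mcm3, Cdc45 and Gins2, and for 6.67% of all genes tested. Control replicates 1 and 3 lay above all SMA libraries for the same 4 genes and for 13.9% of the genes tested without control replicate 2. The count was 8 without control replicate 3, where the share of all genes tested was 13.5%, and 9 without SMA replicate 1, where it was 11.6%. Control replicate 1 exceeded control replicate 3 for 7 of the 10 genes.

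In the comparison of all genes with limma, no gene passed an adjusted p of 0.05 (0.0%), and the smallest adjusted p was 0.683. With an unadjusted p under 0.05, 409 genes were lower (2.39%) and 581 higher (3.4%) in SMA, and 2 of the 10 genes, Cdc45 and Gins2, were among the lower ones. The 10 genes were selected on results of these same libraries. Counts of them beside these shares, here and below, are therefore a description and no test. With a fold difference over 2 as well, 17 genes were lower (0.0995%), with none of the 10 genes among them, and 12 were higher (0.0702%). The number of these lower genes was 78 without control replicate 1, 7 without control replicate 2, 131 without control replicate 3, 34 without SMA replicate 1, 4 without SMA replicate 2 and 6 without SMA replicate 3. The number of higher genes was 28 without control replicate 1 and 12 to 16 without each of the other libraries in turn. Without control replicate 2, 2 genes had an adjusted p under 0.05 (0.0121%), Snora74a and Rpph1, which encode small noncoding RNAs and were picked once their values were known. In that comparison 862 genes were lower (5.2%) and 874 higher (5.27%) by the unadjusted p, with 2 of the 10 genes, Mcm3 and Gins2, among the lower ones, and 7 (0.0422%) were lower with a fold difference over 2, none of them among the 10, while 16 (0.0965%) were higher. Higher genes thus outnumbered lower ones at this threshold without control replicate 2, as they did without SMA replicate 2, without SMA replicate 3, with limma arrayWeights (7 lower and 16 higher) and with quantile normalization (12 lower and 17 higher). Lower genes outnumbered higher ones over all 6 libraries and in the other alternatives in which both were counted.

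The rest of the replication machinery was described with lists of 13 origin recognition and loading genes, 13 helicase activation genes, 26 replication fork genes, 27 E2F and G1-S regulators and 15 other proliferation genes. None of the genes of these lists passed an adjusted p of 0.05 with limma over all 6 libraries. The ratio of control replicate 2 to the mean of control replicates 1 and 3 had a median of 2.57 over the 10 genes, 1.12 for origin recognition and loading, 1.89 for helicase activation, 1.5 for the replication fork, 1.28 for E2F and G1-S regulators and 3.19 for other proliferation genes. Over all genes tested it was 0.889.

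**Figure D4:**
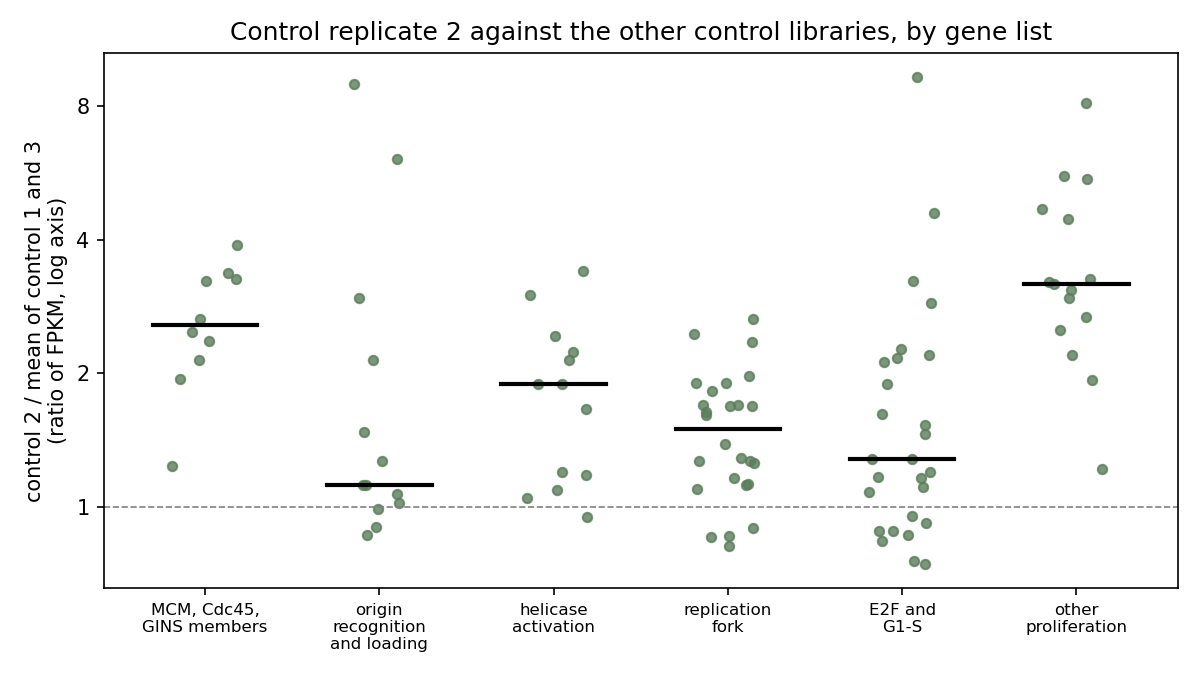
Ratio of FPKM in control replicate 2 to the mean of control replicates 1 and 3 (log axis), with 1 point per gene tested, the black line at the median of each list and points spread sideways at random. The 10 genes lie between 1.24 and 3.89, while origin recognition and loading genes range from 0.863 to 8.97.

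Of the origin recognition and loading genes, which mark origins and load the ring, 9 were lower and 4 higher in SMA, with a median log2 fold change of -0.12, and -0.04 without control replicate 2. Without that library 8 were lower and 4 higher, among 12 tested. With an unadjusted p under 0.05, 1 was lower over all 6 libraries (Cdt1) and 2 without control replicate 2 (Cdt1 and Orc3), and 0 were higher in either case. Orc3 and Orc4, subunits of the origin recognition complex, were at 22.2 and 20.5 FPKM in control replicate 2, which was 0.863 and 1.02 times their mean in control replicates 1 and 3. Orc5, of the same complex, had a log2 fold change of -0.05 (-0.0024 without control replicate 2), and Mcmbp, an MCM-binding protein, of -0.13 (-0.09). Gmnn, the inhibitor of CDT1, had the lowest log2 fold change of the list over all 6 libraries (-0.77, and -0.38 without control replicate 2, where Cdt1 was lower at -0.39), with 2.05, 4.54 and 1.02 FPKM in control and 1.29, 0.724 and 0.735 FPKM in SMA, and Mcm9, a relative of the ring subunits, had the highest log2 fold change, 0.16 in both comparisons.

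Of the helicase activation genes, 11 were lower and 2 higher over all 6 libraries, with a median of -0.30, while 8 were lower and 5 higher without control replicate 2, with a median of -0.06. With an unadjusted p under 0.05, 1 was lower (Dbf4) and 0 higher over all 6 libraries, and 0 passed in either direction without control replicate 2. Cdc7, the kinase that acts on the loaded ring, was at 12.4, 11.2 and 11.2 FPKM in control and at 12.7, 12.7 and 12.2 FPKM in SMA. Topbp1, an activation scaffold, was at 17.2 FPKM in control replicate 2, which was 1.89 times the mean of control replicates 1 and 3. Gins4, a further GINS subunit, was at 8.04, 8.57 and 7.75 FPKM in control and at 7.43, 8.98 and 7.83 FPKM in SMA. Its ratio of control replicate 2 to the mean of control replicates 1 and 3 was 1.09, where that of Gins1 was 2.37. Donson had a log2 fold change of 0.05 (0.08 without control replicate 2). Clspn, a fork checkpoint mediator, was the lowest of the list over all 6 libraries at -0.56, but was at -0.16 without control replicate 2, where Dbf4, the activating subunit of the CDC7 kinase, was lowest at -0.31.

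Of the replication fork genes, 24 were lower and 2 higher over all 6 libraries, with a median of -0.27, and 22 were lower and 4 higher without control replicate 2, with a median of -0.12. With an unadjusted p under 0.05, 6 were lower over all 6 libraries and 4 without control replicate 2 (Pold4, Pcna, Rfc3 and Rpa2), and 0 were higher. Pcna, the sliding clamp, was at 33.4, 53.2 and 29.3 FPKM in control and at 24.6, 20.9 and 23.8 FPKM in SMA, without overlap, with a log2 fold change of -0.67, and -0.42 without control replicate 2. Rfc2 of the clamp loader had a log2 fold change of -0.14 (-0.03 without control replicate 2), and Pole3 and Pole4 of DNA polymerase epsilon of -0.14 and 0.10 (-0.07 and 0.03).

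Of the E2F and G1-S regulators, 24 were lower and 3 higher over all 6 libraries, with a median of -0.25, and 22 were lower and 5 higher without control replicate 2, with a median of -0.14. With an unadjusted p under 0.05, 2 were lower over all 6 libraries (E2f3 and E2f7) and 3 without control replicate 2 (E2f3, E2f7 and Ccna2), and 0 were higher. E2f2, a transcriptional activator, was at 11.6 FPKM in control replicate 2 and at 0.592 to 1.36 FPKM elsewhere, and its log2 fold change was -1.09 (-0.26 without control replicate 2). The cyclin-dependent kinase inhibitor Cdkn1a had the highest log2 fold change of the list, 0.29 (0.16 without control replicate 2), with 15.9 FPKM in control replicate 2 as its lowest library. Cdk4, Cdkn1c and Ccnd2, also among the most abundant of the list, had log2 fold changes of -0.21, -0.36 and -0.05 (-0.14, -0.18 and -0.17 without control replicate 2).

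All 15 other proliferation genes were lower in SMA by sign, also without control replicate 2, with medians of -0.81 and -0.28. With an unadjusted p under 0.05, 2 were lower over all 6 libraries (Ccnb1 and Tyms) and 4 without control replicate 2 (Mki67, Top2a, Ccnb1 and Tyms). Ccnb1 also had a fold difference over 2 over all 6 libraries, and 0 genes of the list had one without control replicate 2. Apart from Orc3, Pcna, Mki67 and Top2a, the genes given beside such counts in the 5 lists were named once their values were known. Mki67, a marker of cycling cells, was at 4.5, 21.7 and 3.30 FPKM in control and at 3.29, 2.08 and 2.56 FPKM in SMA, with a log2 fold change of -1.17 (-0.43 without control replicate 2). Top2a, the mitotic topoisomerase, had a log2 fold change of -0.97, and -0.44 without control replicate 2. Rrm2 and Rrm1, of ribonucleotide reductase, had values of -0.85 and -0.49, and -0.09 and -0.19 without control replicate 2. Foxm1, a regulator of mitotic genes, was nearest to 0 in the list over all 6 libraries at -0.24, and was at -0.16 without control replicate 2, where others were nearer.

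Markers of blood cells were, like the 10 genes, highest in control replicate 2. Of 16 erythroblast markers 15 were in the files, and all 15 were highest in control replicate 2, with summed levels of 1870, 18900 and 1180 FPKM in control and 1120, 1720 and 1330 FPKM in SMA, and Hbb-bs, a beta-globin gene, was the most abundant. Of 8 neutrophil markers, 8 were highest in control replicate 2, with sums of 12.7, 424 and 8.40 FPKM in control and 6.04, 7.75 and 8.30 FPKM in SMA, led by S100a8. Control replicate 1 held the next highest sums of both lists. Outside control replicate 2 the order differed, since SMA replicate 2, with the lowest summed level of the 10 genes, exceeded control replicate 3 in the erythroblast sum and held the highest hepatocyte sum of the other 5 libraries. No marker of these lists was at 0 in every library or at 0 outside 1 library. The part of these cell types in the levels of the 10 genes was not tested.

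Among lists of the cord itself, the sum of 7 neural progenitor markers, led by Fabp7, was 708, 448 and 651 FPKM in control and 513, 491 and 483 FPKM in SMA. The sum was thus lowest in control replicate 2, and higher in control replicates 1 and 3 than in all SMA libraries. The 5 endothelial markers, led by Cldn5, summed to 49.9, 54.7 and 50.1 FPKM in control and to 40.3, 31.1 and 32.1 FPKM in SMA, with every SMA library below every control library. Cldn5, of endothelial tight junctions, was at 25.8, 20.4 and 25.0 FPKM in control and at 16.4, 15.7 and 14.4 FPKM in SMA. Pecam1, an endothelial adhesion molecule, was at 5.19, 7.06 and 5.26 FPKM in control and at 4.53, 2.92 and 3.64 FPKM in SMA. The groups did not overlap for these genes and for Kdr, and overlapped for Cdh5 and Flt1, and all of these but Cldn5 were named once their values were known. Their part in the differences seen without control replicate 2 was not tested.

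The 6 oligodendrocyte precursor markers, led by Olig1, summed to 172, 133 and 192 FPKM in control and 169 to 172 FPKM in SMA, and the 6 astrocyte markers, led by Gfap, to 578, 470 and 580 FPKM in control and 530 to 589 FPKM in SMA. The 6 neuron markers, led by Stmn2, summed to 1180, 631 and 1130 FPKM in control and 1160 to 1250 FPKM in SMA. By sign, all 6 were higher in SMA over all 6 libraries, and 5 were higher and 1 lower without control replicate 2. With an unadjusted p under 0.05 from limma, 0 were higher over all 6 libraries. Without control replicate 2, 2 were higher, as were 5.27% of all genes tested, and 0 were lower in either case. Motor neuron markers (5, led by Slc18a3) summed to 15.8 FPKM in control replicate 2 and to 23.6 to 34.8 FPKM elsewhere, and spinal Hox genes (5, led by Hoxb8) to 99.4 FPKM there and 149 to 194 FPKM elsewhere. Sums of 4 skeletal muscle markers, led by Acta1, ranged from 0.717 to 5.61 FPKM over the 6 libraries. With control replicate 2 and SMA replicate 3 both left out, an alternative chosen after seeing the data, the median log2 fold change of the 10 genes was -0.21.

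**Figure D5:**
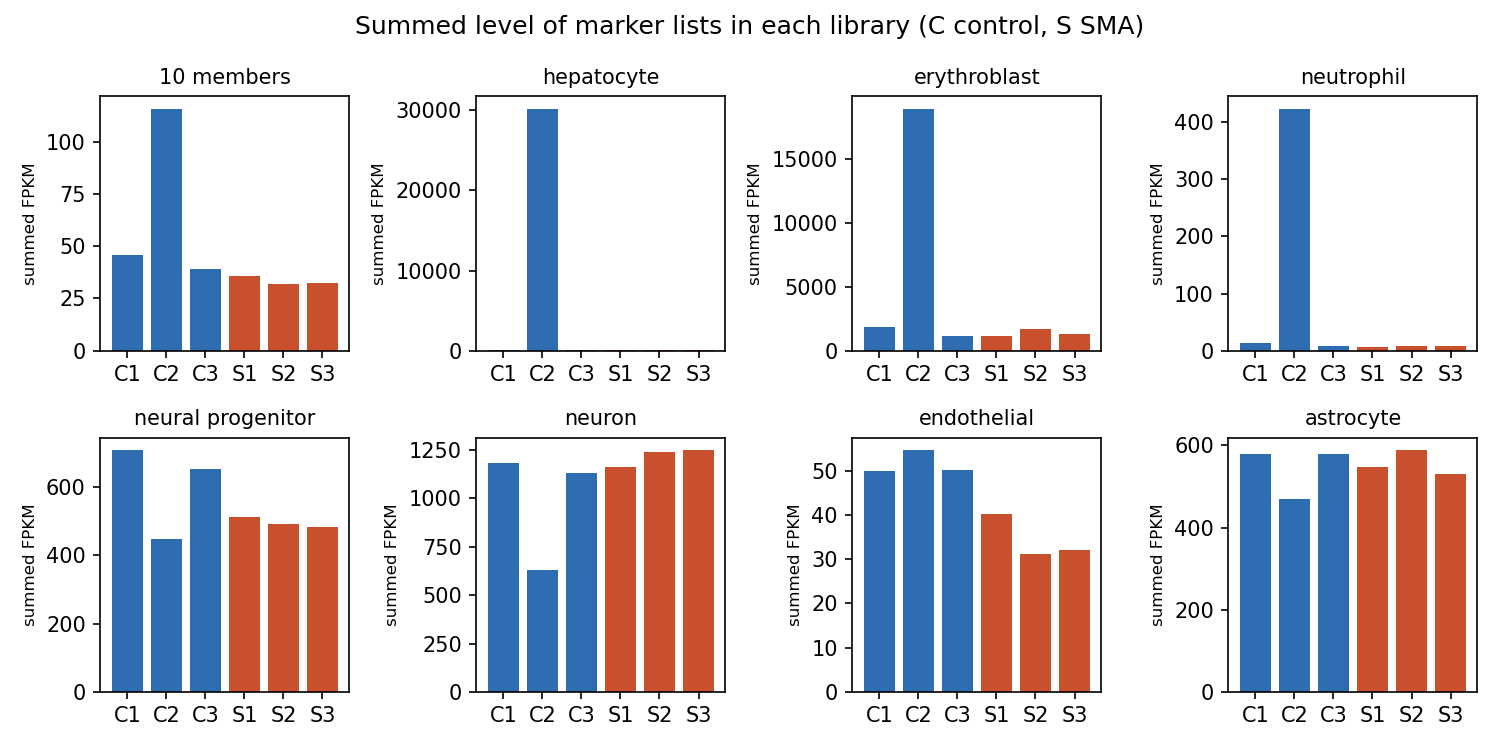
Summed FPKM of the 10 genes and of 7 marker lists in control (C, blue) and SMA (S, red) libraries, 1 bar per library, each panel with its own axis from 0. The hepatocyte, erythroblast and neutrophil panels share their highest bar, control replicate 2, with the 10 genes, while the neural progenitor and neuron panels have their lowest bar there.

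The genes tested, with the 10 genes left out, were searched for profiles most like the mean of Mcm2 to Mcm7. By the root-mean-square difference of centred log2(FPKM + 1) over the 6 libraries, these were Suclg2, Foxa2, Gm44250, Cmah, Litaf, Hfe, Fam46a and Dleu2, with differences of 0.0554 to 0.0731. Suclg2, a subunit of succinyl-CoA ligase, was at 12.8, 30.3 and 10.9 FPKM in control and at 10.6, 9.57 and 9.0 FPKM in SMA. Over the 5 libraries without control replicate 2, the most alike were Ice2, Fbxo4, Eif1a, Tgif2, Rps27, Usp6nl, Rhoa and Erlec1, with differences of 0.0295 to 0.0371. No gene was in both groups of 8, and none of them belongs to the other replication lists. The 10 genes themselves could not appear, since they were left out of the search.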

How the data were processed

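After ribosomal RNA removal and strand-specific library construction, the authors aligned reads with HISAT2 to mm10 and deposited FPKM values computed per library with Cufflinks, per the study's methods and the submitters' processing notes. Versions, and whether strand was used in counting, are not given in the sources used here. A gene absent from a library was set to 0. SMA and control were compared on log2(FPKM + 1) with limma 3.58.1 (lmFit and eBayes with trend) in R 4.3.3, without covariate, over genes averaging 0.5 FPKM or more, two-sided, with Benjamini-Hochberg adjustment over all genes tested. The procedure was tested on simulated data with means and spreads taken without control replicate 2, so the simulation does not cover the spread that this library adds. Alternatives were another pseudocount or filter, other scalings, robust variances, library weights, a replicate block and leaving out libraries. Gene positions are from GENCODE M21, in which 99.9% of the genes matched by identifier overlapped their span in the files, and promoters from RefSeq. The 10 genes and the lists were chosen with earlier results of these data known. Named genes are the 10, Smn1, in each replication list the 4 most abundant and those with the highest and lowest fold change, the most abundant gene of each marker list, the 8 most alike in profile, and genes sharing a span. Others were named after their values were seen, where the text says so. The results of some marker lists are not reported here.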

Additional observations from a re-analysis of the deposited data

How the results depend on the processing

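Of 20 alternatives, 4 (both filters, robust variances and the replicate block) left the log2 fold changes of the 10 genes as they were by construction. In the other 16, of which 5 were chosen after seeing the data, all 10 stayed below 0. Their median was -0.83 with a pseudocount of 0.1 and -0.32 with limma arrayWeights, and without each library in turn it ranged from -0.80 to -0.23. Lower genes with an unadjusted p under 0.05 and over 2-fold numbered 17, and 125 with a pseudocount of 0.1, 7 with arrayWeights and 4 to 131 without each library in turn. The number of higher genes was 12, and 64 with a pseudocount of 0.1 and 12 to 28 without each library in turn. The number of genes with an adjusted p under 0.05 was 0, and 0 to 2 without each library in turn. Genes of the 10 without overlap between the groups numbered 4 (6.67% of all genes tested), 4 to 9 without each library in turn (8.74% to 13.9%) and 3 with quantile normalization (6.14%). The log2 fold change of Smn1 ranged from -0.20 to 0.014 without each library in turn and changed sign, to 0.014, without control replicate 3. The cause of these changes was not tested. Deviations from the group mean had correlations of -0.04, 0.02 and 0.08 between libraries of the same replicate number, for numbers 1 to 3. Between different numbers they were -0.055 to 0.043. Control replicate 2 enters the mean of its group, so these values cannot tell whether the numbers pair the libraries. With the replicate block, 35 genes were lower and 13 higher, 0 had an adjusted p under 0.05, and the median of the 10 genes was -0.61. Depth may limit the genes near 1 FPKM, but its effect by level was not measured, and counting error could not be given.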
